A study of Homo sapiens with 12 samples.

Results

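The liprins are a small family of scaffold proteins, and their mRNA was followed here in the human line NCI-H446, which was derived from a small cell lung cancer. All 6 human genes that carry a liprin symbol were taken from the deposited tables, 4 liprin alpha genes (PPFIA1, PPFIA2, PPFIA3 and PPFIA4) and 2 liprin beta genes (PPFIBP1 and PPFIBP2), out of 34886 gene symbols. The family was chosen by the rise of PPFIA4 between CAPE and DMSO libraries in these same data, so the values of PPFIA4 in that contrast are given as a description with no test. The other 5 genes entered by their family name. CAPE libraries came from cells treated for 8 h with 40 µM caffeic acid phenethyl ester, a phenolic ester found in propolis, dissolved in DMSO (3 mRNA and 3 miRNA libraries). DMSO libraries came from cells given an equal volume of the solvent alone (3 mRNA and 3 miRNA libraries). The labels do not say whether replicates were separate cultures, so p-values measure only the spread between these libraries, which may be technical. All libraries come from 1 cell line without genetic change, and no protein was measured.

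Liprin alpha proteins were found as binding partners of the LAR family of receptor tyrosine phosphatases. Their coiled coils bind ELKS and RIM proteins and their SAM domains bind the LAR phosphatases, the kinase CASK and the liprin betas, and in neurons they help to build the presynaptic active zone. In other cells PPFIA1 lies at the cell edge and near focal adhesions, where it supports migration, and PPFIBP1 is part of cortical complexes of KANK, LL5 and CLASP proteins that hold microtubule ends near adhesions. PPFIA2 and PPFIA3 are known mainly from brain. PPFIA4 has been described as a gene that low oxygen induces. All of this is background and was not measured here.

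Facts of the series that touch every value are these. The mRNA libraries held 17569997 to 20917508 estimated counts, and DMSO 3, the deepest, stood apart from the other 5. It had 16207 detected genes against 17864 to 18587 in the others, and a TMM factor, edgeR's scaling factor for library make-up, of 0.699 against 1.07 to 1.09. The liprin contrasts are therefore given with all 6 libraries and without DMSO 3. Of 8 neuroendocrine markers of small cell lung cancer, 7 were under 1 TPM in every library, NEUROD1, INSM1 and NCAM1 among them. UCHL1 was the exception at 15.7 to 24.3 TPM. The epithelial keratins KRT8 and KRT18 were high in every library, while EPCAM stayed at 1.16 to 2.96 TPM and CDH1 at 0.0364 to 0.194 TPM. The 4 epithelial markers summed to 1126 to 1185 TPM in CAPE and to 1292 to 2552 TPM in DMSO, where DMSO 3 stood out (KRT8 at 3421 CPM in DMSO 3, 913 and 873 CPM in DMSO 1 and DMSO 2). The leukocyte markers, almost all of it CD68, summed to 28.5 to 34.3 TPM in CAPE and 23.9 to 26.0 TPM in DMSO. The fibroblast markers summed to 34.2 to 39.3 TPM in CAPE and 10.8 to 32.4 TPM in DMSO, with DMSO 3 lowest. The endothelial markers summed to 1.10 to 3.46 TPM in CAPE and 1.58 to 4.07 TPM in DMSO. CD3E was at 0 in every library. The part of these differences in the liprin values was not tested. In bulk RNA, fewer cells of a kind and less RNA per cell cannot be told apart.

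The promoters of PPFIA4 and of its relatives PPFIA3 and PPFIA1 are shown because these are the liprin alphas detected in the libraries. Each is the 250 bases upstream of the start in RefSeq (GRCh38.p14), on the plus strand, written 5′ to 3′. Capitals mark ACGTG or GCGTG, the core letters of hypoxia response elements, on either strand. GCGTG is also the core of the aryl hydrocarbon receptor element, and the 2 ACGTG matches inside CACGTG overlap.

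PPFIA4, chr1:203026241-203026490: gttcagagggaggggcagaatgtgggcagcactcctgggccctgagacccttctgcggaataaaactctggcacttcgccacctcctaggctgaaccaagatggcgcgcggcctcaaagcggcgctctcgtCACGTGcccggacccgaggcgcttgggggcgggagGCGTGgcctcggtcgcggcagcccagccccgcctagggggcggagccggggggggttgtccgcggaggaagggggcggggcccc

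PPFIA3, chr19:49119294-49119543: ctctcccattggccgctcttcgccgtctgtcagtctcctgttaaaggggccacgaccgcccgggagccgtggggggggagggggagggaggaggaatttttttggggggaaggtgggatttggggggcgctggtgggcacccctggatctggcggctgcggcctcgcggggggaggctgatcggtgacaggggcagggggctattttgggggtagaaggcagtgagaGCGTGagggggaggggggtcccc

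PPFIA1, chr11:70270440-70270689: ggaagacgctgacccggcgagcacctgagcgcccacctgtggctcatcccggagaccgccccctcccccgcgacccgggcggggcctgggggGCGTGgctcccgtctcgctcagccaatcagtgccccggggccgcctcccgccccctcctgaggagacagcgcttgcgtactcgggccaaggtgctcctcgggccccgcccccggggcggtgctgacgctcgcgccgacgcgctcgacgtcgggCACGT

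The PPFIA4 promoter held CACGTG with its first base 119 bases before the start, which is the palindromic E-box and carries ACGTG on both strands, and GCGTG 84 bases before it. The PPFIA3 promoter held GCGTG alone, and the PPFIA1 promoter held each core once. The table has 12 liprin promoters, at least 1 for each of the 6 genes. Of the 12, CACGTG was found also in 1 of PPFIBP2, 63 bases before its start. Among all 35116 promoter windows of this length, 18.5% held ACGTG, 32.2% GCGTG and 6.34% CACGTG. The antioxidant element TGACNNNGC, which 10.9% of windows held, was in 1 PPFIA1 and 1 PPFIBP2 window. The TEAD element GGAATG, which 11.9% held, was in 1 PPFIBP1 window and in 2 of PPFIBP2. These matches describe letters and not binding.

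PPFIA4 (gene ID 8497, chromosome 1, 203026491 to 203078736) is the liprin alpha for which the family was taken. It measured 110.8, 119.9 and 122.3 CPM in CAPE, against 13.1, 10.96 and 2.12 CPM in DMSO. CPM is the count scaled to a common library size after TMM. The groups did not overlap, CAPE libraries lay close together, and DMSO 3 was lower than the other DMSO libraries. The estimated counts behind these values were 2097, 2254 and 2392 in CAPE and 248, 210 and 31 in DMSO, the last in DMSO 3. The mean was 117.7 ± 6.06 CPM in CAPE and 8.72 ± 5.81 CPM in DMSO (SD, n = 3). The log2 fold change was 3.75 (SE 0.64). Without DMSO 3 the log2 fold change was 3.29 (SE 0.08), or 9.79-fold in CPM against the mean of DMSO 1 and DMSO 2. By the size of this fold change PPFIA4 was number 13 of 13595 genes with all 6 libraries and number 46 of 13919 without DMSO 3.

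**Figure D1:**
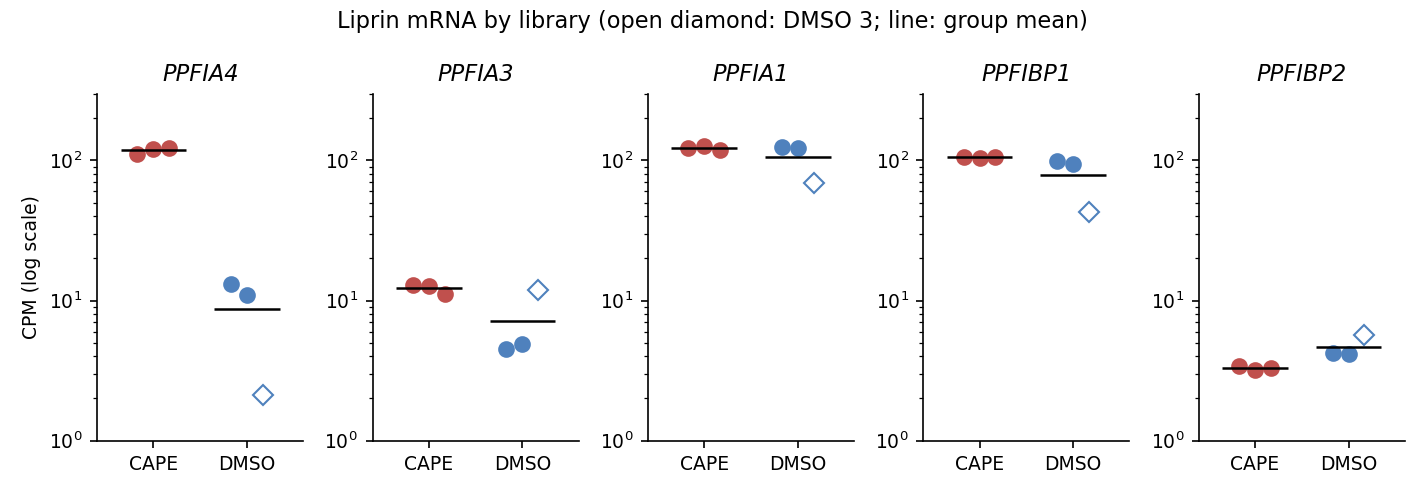
CPM (log axis) of the 5 detected liprin genes in each library, CAPE left and DMSO right, with lines at group means and DMSO 3 as an open diamond. The PPFIA4 values sit between 110.8 and 122.3 in CAPE and at or under 13.1 in DMSO, while the other 4 genes move far less.

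Among the other liprin alphas, PPFIA1 (gene ID 8500, chromosome 11, 70270690 to 70384396), the widely expressed member, measured 122.5, 126.8 and 118.0 CPM in CAPE, against 125.3, 122.1 and 69.3 CPM in DMSO. The groups overlapped, and only DMSO 3 was low. Its log2 fold change was 0.21 (SE 0.25, edgeR adjusted p = 0.608) with all 6 libraries and -0.02 (SE 0.05, edgeR adjusted p = 0.789) without DMSO 3, so its sign turned with this library. PPFIA2 (gene ID 8499, chromosome 12, 81257975 to 81759350) was listed at 0 counts and 0 TPM in all 6 libraries. Such a 0 can be a failed estimate of the quantifier as well as a silent gene, and it was not tested.

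PPFIA3 (gene ID 8541, chromosome 19, 49119544 to 49151026), a liprin alpha of brain, measured 13.0, 12.6 and 11.1 CPM in CAPE, against 4.53, 4.86 and 11.9 CPM in DMSO. DMSO 3 lay among the CAPE values and the other DMSO libraries well below them. With all 6 libraries its log2 fold change of 0.79 (SE 0.40) did not pass (edgeR adjusted p = 0.348). Without DMSO 3 PPFIA3 rose, with a log2 fold change of 1.38 (SE 0.13) and an edgeR adjusted p of 9.98e-07. In TPM, which divides by transcript length, PPFIA3 measured 11.4, 12.3 and 8.53 in CAPE, against 5.62, 5.92 and 8.01 in DMSO. There DMSO 3 lay only just below the lowest CAPE value. The fold over DMSO 1 and DMSO 2 was 2.61 in CPM and 1.86 in TPM.

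Of the liprin betas, PPFIBP1 (gene ID 8496, chromosome 12, 27524206 to 27695564), the partner of KANK proteins, measured 105.8, 103.6 and 105.6 CPM in CAPE, against 99.4, 94.6 and 42.5 CPM in DMSO. All CAPE values lay above all DMSO values, by little except for DMSO 3. Its log2 fold change was 0.41 (SE 0.33, edgeR adjusted p = 0.465), and 0.11 (SE 0.05, edgeR adjusted p = 0.0843) without DMSO 3. PPFIBP2 (gene ID 8495, chromosome 11, 7513999 to 7667304), the scarcer liprin beta, measured 3.44, 3.19 and 3.32 CPM in CAPE, against 4.22, 4.13 and 5.68 CPM in DMSO, from 60 to 83 estimated counts per library. All its CAPE values lay below all DMSO values. The log2 fold change was -0.49 (SE 0.21, edgeR adjusted p = 0.321), and -0.33 (SE 0.17, edgeR adjusted p = 0.133) without DMSO 3. On the log2(TPM + 1) scale the sign of PPFIBP2 turned with all 6 libraries, to 0.20 (SE 0.31, limma adjusted p = 0.722). Leaving out PPFIA4, groups did not overlap in CPM in 2 of the 4 detected genes (PPFIBP1 and PPFIBP2), where 41.9% of all 13595 genes tested had groups that did not overlap.

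Thus 5 of the 6 liprin genes passed the filter on low counts. Of the 4 tested besides PPFIA4, none passed with all 6 libraries in edgeR's quasi-likelihood test, and none had an unadjusted p under 0.05. DESeq2 and limma on TPM likewise called none of the 4 with all 6 libraries. In the edgeR fit with all 6 libraries 1.49% of all genes were higher and 0.456% lower with CAPE. Without DMSO 3, PPFIA3 was the 1 of 4 to pass, upward, and none passed downward, and in that fit calls were common, with 20.4% of all genes called higher and 20.8% called lower. The call of PPFIA3 rests on leaving out DMSO 3, and it was made there by DESeq2 and by limma on TPM as well (log2 fold changes 1.37 and 0.78). The log2 fold changes of the 4 ran from -0.49 to 0.79 with all 6 libraries and from -0.33 to 1.38 without DMSO 3, beside medians over all genes of -0.01 and 0.00346.

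**Figure D2:**
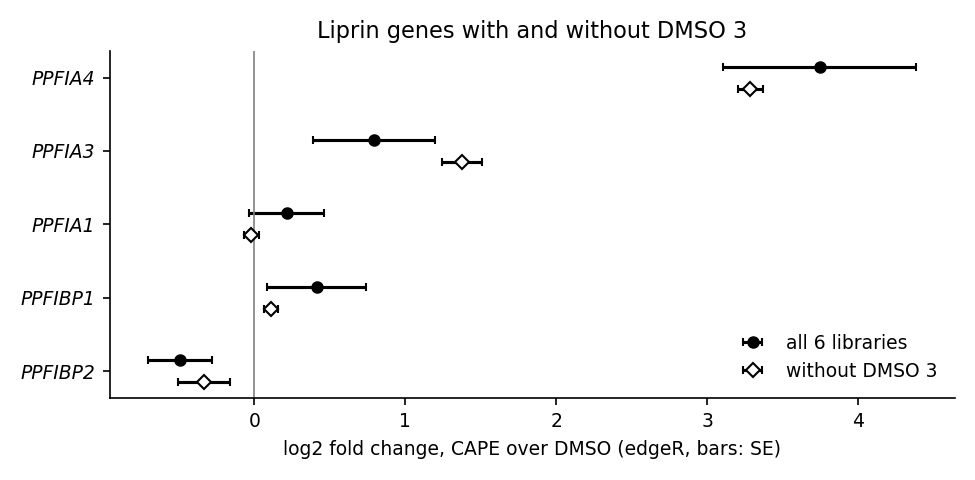
Log2 fold changes of CAPE over DMSO from edgeR for the 5 detected liprin genes, filled circles with all 6 libraries and open diamonds without DMSO 3, with SE bars. PPFIA4 stays above 3 in both, PPFIA3 moves from 0.79 to 1.38, and PPFIA1 lies at -0.02 without DMSO 3.

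The make-up of the family was compared in TPM, since levels of different genes can be set side by side only per length. PPFIA4 held 68.7, 71.7 and 73.3 TPM in CAPE, against 7.37, 7.38 and 0.265 TPM in DMSO. In CAPE the order of the mean levels was PPFIA4 (71.2 ± 2.35 TPM), PPFIA1 (55.6 ± 2.37), PPFIBP1 (48.7 ± 3.06), PPFIA3 (10.8 ± 1.97) and PPFIBP2 (3.01 ± 0.121, SD, n = 3), and no neighbours in this order overlapped over the 3 libraries. In DMSO 1 and DMSO 2 PPFIA1 led with a mean of 52.2 TPM, followed by PPFIBP1 (44.0), PPFIA4 (7.37), PPFIA3 (5.77) and PPFIBP2 (3.24), again with no overlap between neighbours. PPFIA4 was thus the most abundant liprin mRNA in CAPE libraries and the third in those DMSO libraries.

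DMSO 3 had another order, with PPFIA1 at 13.4, PPFIA3 at 8.01, PPFIBP1 at 6.14, PPFIBP2 at 1.36 and PPFIA4 at 0.265 TPM. The 6 genes summed to 189.0, 195.9 and 183.1 TPM in CAPE, against 111.2, 114.2 and 29.2 TPM in DMSO. PPFIA4 made up 36.3%, 36.6% and 40.0% of this sum in CAPE, against 6.63%, 6.47% and 0.907% in DMSO. Among the liprin alphas alone its share was 50.3%, 50.6% and 54.4% in CAPE, against 11.4%, 11.1% and 1.22% in DMSO. The share of PPFIA1 among liprin alphas was 41.3%, 40.7% and 39.3% in CAPE, against 79.8%, 80.0% and 61.9% in DMSO, while its own level in TPM differed little outside DMSO 3. These shares contain PPFIA4, so they describe the same rise and are no separate result.

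**Figure D3:**
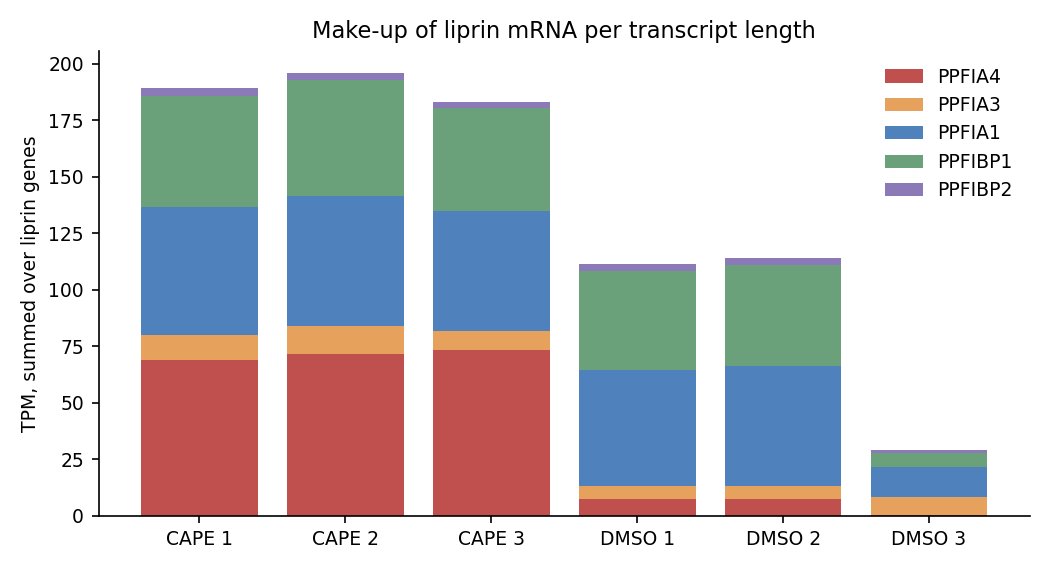
Stacked TPM of the 5 detected liprin genes in each library, CAPE libraries left and DMSO libraries right. The bars reach 183.1 to 195.9 TPM in CAPE and 111.2, 114.2 and 29.2 TPM in DMSO, and the PPFIA4 segment is the one that differs most in height between CAPE libraries and DMSO 1 and 2.

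Where DMSO 3 departed from DMSO 1 and DMSO 2, the liprins were set beside genes of like transcript length, taken from the ratio of estimated count to TPM. This ratio, relative to the library median, was averaged over all 6 libraries, DMSO 3 included. For PPFIA4 it was 2.68 in DMSO 3, from 31 counts, against 1.10 to 1.32 in the other libraries. DMSO 3 thus helped to set the decile in which PPFIA4 was placed. PPFIA4 in DMSO 3 differed from the mean of DMSO 1 and DMSO 2 by -2.44 on the log2 CPM scale, where the 1360 genes in its decile of length had a median of -0.38 and 1.76% of them lay lower still. PPFIA1 and PPFIBP1, in that same decile, deviated by -0.83 and -1.19. PPFIA3, in decile 4, deviated by 1.32 where its decile had a median of 0.46, and PPFIBP2, in decile 5, by 0.44 against 0.27. All 5 genes deviated to the side of their decile's median, and further. Besides PPFIA4 they lay well inside their deciles. Of the genes in the decile, 33.5% lay lower than PPFIA1, 20.7% lower than PPFIBP1, 85.1% lower than PPFIA3 and 56.4% lower than PPFIBP2. The deciles run from the shortest (1) to the longest genes by this ratio, and the part of length in the deviations of single genes was not tested.

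The ratio of estimated count to TPM follows the length of the transcripts to which a gene's reads were given, and the choice of the family did not use it. It was divided by the library's median over 12186 genes with at least 10 counts in every library. For PPFIA4 it was 1.204, 1.26 and 1.25 in CAPE, against 1.32, 1.10 and 2.68 in DMSO, so that CAPE libraries lay within the range of the DMSO libraries. The mean was 1.24 ± 0.0307 in CAPE (SD, n = 3) and 1.21 in DMSO 1 and DMSO 2, and the value of DMSO 3 rests on 31 counts.

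For PPFIA3 the ratio was 0.848, 0.773 and 0.982 in CAPE, against 0.599, 0.609 and 0.498 in DMSO, DMSO 3 included. The PPFIA3 groups did not overlap, and the ratio of their means was 1.53, or 1.44 without DMSO 3. PPFIA1 (1.62 to 1.67 in CAPE, 1.71 to 1.81 in DMSO) and PPFIBP2 (0.807 to 0.861 in CAPE, 0.903 to 1.40 in DMSO) also had groups without overlap, with lower values in CAPE, and PPFIBP1 overlapped. Without DMSO 3 the ratio of means was 0.939 for PPFIA1, 0.864 for PPFIBP2 and 0.992 for PPFIBP1. An exact two-sided permutation test over 3 against 3 libraries gave p = 0.1 for PPFIA3, PPFIA1 and PPFIBP2, the smallest this design can give, p = 0.7 for PPFIA4 and p = 0.5 for PPFIBP1, and 0.167 for the first 3 after Benjamini-Hochberg adjustment over the 5 genes. With a smallest possible p of 0.1 no gene could pass at 0.05, so this test cannot decide whether the ratio differed. Of the 12186 genes, 24.9% had groups that did not overlap in this ratio. Which transcripts took the reads is not in the gene tables used here.

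**Figure D4:**
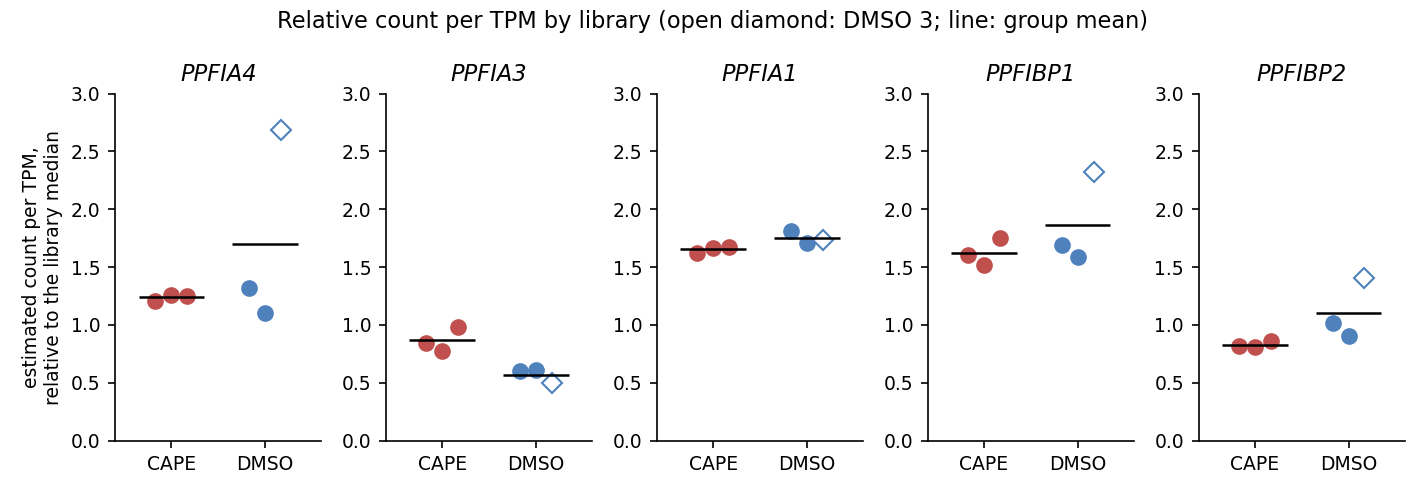
Estimated count per TPM relative to the library median for the 5 detected liprin genes, CAPE left and DMSO right, with lines at group means and DMSO 3 as an open diamond. PPFIA3 lies at 0.773 to 0.982 in CAPE and at 0.498 to 0.609 in DMSO, while PPFIA4 in CAPE lies within its DMSO range, whose top value of 2.68 is DMSO 3.

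The genes that work with liprins were read from the same fit, in lists taken from their known roles. The receptors are the LAR-type phosphatases PTPRF, PTPRS and PTPRD. Of these, 2 of 3 were tested and neither passed with all 6 libraries (0 with an unadjusted p under 0.05, and none by DESeq2 or by limma on TPM). PTPRF, the LAR phosphatase itself, measured 311.9, 303.0 and 285.4 CPM in CAPE, against 271.3, 240.1 and 210.9 CPM in DMSO (log2 fold change 0.32, SE 0.16, edgeR adjusted p = 0.346). Its groups did not overlap, and without DMSO 3 it rose by 0.23 (SE 0.05, edgeR adjusted p = 0.00344), a call that limma on log2(TPM + 1) did not make (adjusted p = 0.0708). PTPRS had log2 fold changes of 0.15 and, without DMSO 3, -0.02, and did not pass in either fit.

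Of 25 partners at the active zone and in synaptic scaffolds 14 were tested, and none passed with all 6 libraries in edgeR, though 4 had an unadjusted p under 0.05, as did 2183 of all 13595 genes. DESeq2 called 2 of the partners with all 6 libraries, ARHGEF7 among them, and 856 of all 21660 genes, and limma on TPM called 0. ARHGEF7, the exchange factor beta-PIX that binds the liprin partner GIT1, had the smallest p, with 86.6, 84.7 and 82.7 CPM in CAPE, against 60.1, 58.3 and 46.2 CPM in DMSO (log2 fold change 0.62, SE 0.16, edgeR adjusted p = 0.141). Its groups did not overlap, and without DMSO 3 ARHGEF7 rose by 0.51 (SE 0.05, edgeR adjusted p = 3.24e-06). The median log2 fold change of the list was 0.31 with all 6 libraries and 0.34 without DMSO 3.

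Without DMSO 3, 6 of 16 tested scaffold partners were higher and 1, GIT1, was lower, beside the 20.4% and 20.8% of all genes. Among the higher ones, named after their values were seen, were ARHGEF7, SYDE1, TANC2 and the very scarce RIMS3 and UNC13A, with log2 fold changes from 0.40 to 1.39. SYDE1, a RhoGAP related to the worm protein SYD-1, which acts with the worm liprin, had a log2 fold change of 0.11 with all 6 libraries (edgeR adjusted p = 0.854). CASK, KIF1A, ERC2 and RIMS2, the kinase, motor and scaffolds of neuronal liprin complexes, were listed under 0.5 CPM in every library, where a failed estimate cannot be told apart from a silent gene, whereas ERC1, the ELKS protein of non-neuronal cells, measured 131.8 to 142.0 CPM in CAPE and 81.5 to 148.0 CPM in DMSO.

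Of 11 genes of the cortical complex 9 were tested, and with all 6 libraries 1 fell and none rose in edgeR. PHLDB1, which encodes LL5 alpha, measured 18.3, 19.8 and 16.9 CPM in CAPE, against 36.4, 32.9 and 41.7 CPM in DMSO. The groups did not overlap, and DMSO 3 was the highest library by little. PHLDB1 fell, with a log2 fold change of -1.01 (SE 0.16) and an edgeR adjusted p of 0.0407, and of -0.92 (SE 0.09) without DMSO 3, at an edgeR adjusted p of 8.72e-07. The call was lost on leaving out any library other than DMSO 3 (edgeR adjusted p from 0.113 to 0.298). In those fits only 0 to 17 of all genes passed, and the log2 fold change of PHLDB1 ran from -1.10 to -0.96. The call was also lost with no filter on low counts (edgeR adjusted p = 0.0629) and with limma on log2(TPM + 1) (adjusted p = 0.436). DESeq2 made it (adjusted p = 1.52e-05). Without DMSO 3 CLASP2, a microtubule end-binding protein, was lower as well (log2 fold change -0.30), against -0.04 with all 6 libraries (edgeR adjusted p = 0.938). The remaining members, KANK1, KANK2, PHLDB2, CLASP1, KIF21A, TLN1 and ITGB1 among them, passed in neither fit. Over the 3 partner lists together 0 of 25 tested genes were higher and 1 lower with all 6 libraries, with a median of 0.21, and 7 of 27 were higher and 3 lower without DMSO 3, with a median of 0.08. Over all genes 1.49% were higher and 0.456% lower with all 6 libraries, and 20.4% higher and 20.8% lower without DMSO 3.

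**Figure D5:**
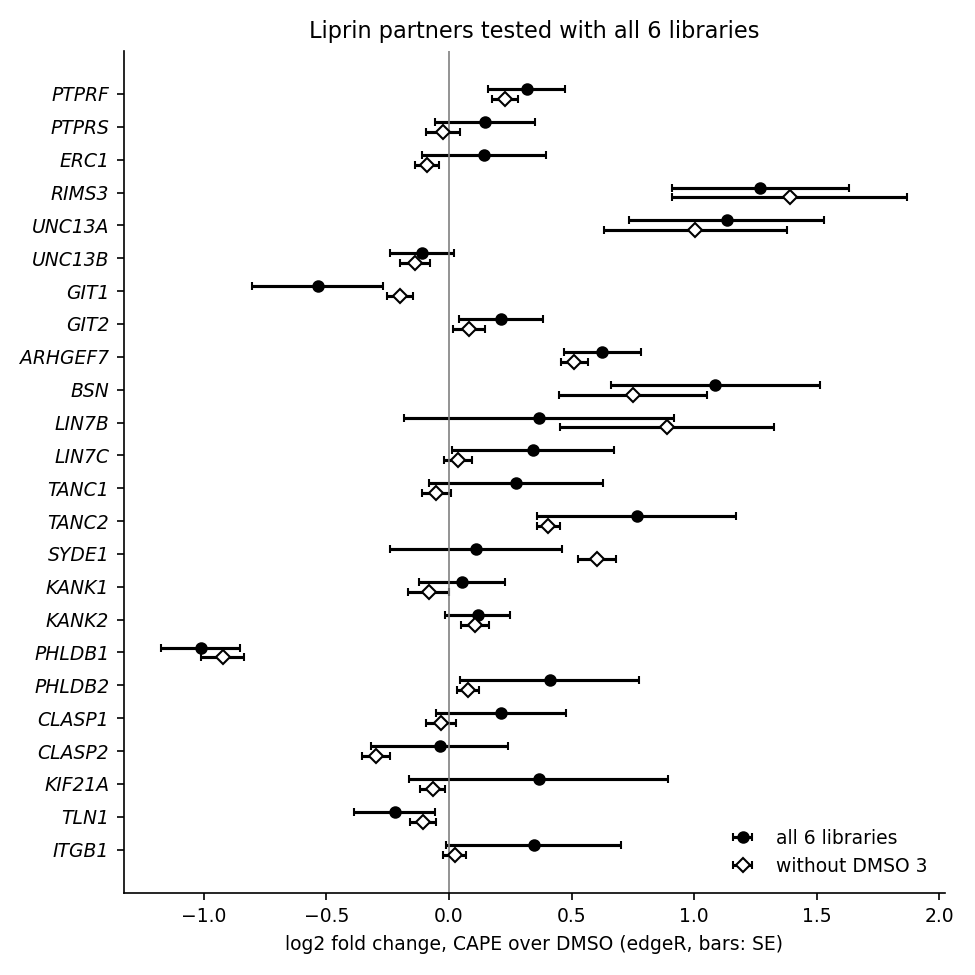
Log2 fold changes of CAPE over DMSO from edgeR for partner genes tested with all 6 libraries and reported here, filled circles with all 6 and open diamonds without DMSO 3, with SE bars. PHLDB1 lies furthest to the left in both fits (-1.01 and -0.92), and RIMS3 and UNC13A, to the right, have wide bars.

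Because PPFIA4 is described as hypoxia-induced, 14 hypoxia-inducible genes were set beside it. With all 6 libraries 7 of the 14 rose and none fell, with a median log2 fold change of 1.15, and leaving DMSO 3 out gave 14 of 14 higher (median 1.29), beside 1.49% and 20.4% of all genes higher in these fits. The count was 0 on leaving out any CAPE library and 1 on leaving out DMSO 1 or DMSO 2. Few genes of any kind passed in those fits, 0, 6 and 0 without CAPE 1, CAPE 2 and CAPE 3, and 9 and 17 without DMSO 1 and DMSO 2. An unadjusted edgeR p under 0.05 was kept by 10 of the 14 on leaving out any CAPE library, beside 1099 to 1178 of all genes. On leaving out DMSO 1 or DMSO 2 it was kept by 11, beside 2678 and 2770 of all genes. The 7 genes called with all 6 libraries were ADM, BHLHE40, BNIP3, MXI1, NDRG1, PFKFB4 and VEGFA, at log2 fold changes from 1.19 to 2.39. Among the rest, CA9 alone had a negative log2 fold change with all 6 libraries (-0.10, SE 0.49, edgeR adjusted p = 0.908). CA9 was at 530.6 CPM in DMSO 3, against 163.2 and 167.5 CPM in DMSO 1 and DMSO 2. Without DMSO 3 its log2 fold change was 0.70 (SE 0.05). The list was put together with earlier results of these libraries known, so it is no independent evidence of a direction.

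The protein-coding genes whose pattern over the 6 libraries was most like that of PPFIA4 were SH3D21, IFIT2, DOK3, ERRFI1 and INSIG2, in this order. Likeness was the Euclidean distance between log2 CPM values centred on each gene's mean, and ran from 1.34 for SH3D21 to 2.46 for INSIG2. It was taken over 9848 genes with a mean log2 CPM of at least 3, of which only protein-coding ones were named. A gene can pass this mean through its CAPE values alone, as SH3D21 did. The distance uses the PPFIA4 values for which the family was chosen. High values in CAPE and low ones in DMSO were thus fixed in advance for the genes named, and are no separate result. Shared control of these genes and PPFIA4 was not tested. SH3D21, a protein with SH3 domains, measured 31.9, 36.0 and 35.8 CPM in CAPE, against 6.69, 4.75 and 1.71 CPM in DMSO, so that DMSO 3 was lowest here as in PPFIA4. DOK3, an adaptor protein, measured 39.1, 39.0 and 41.0 CPM in CAPE, against 8.96, 6.89 and 2.81 CPM in DMSO. IFIT2 is an interferon-induced protein, ERRFI1 a feedback inhibitor of the EGF receptor, and INSIG2 a sterol sensor of the endoplasmic reticulum. Without DMSO 3 the nearest 5 protein-coding genes were CHAC1, CDK18, IFIT2, RIMKLA and ATF3, at distances of 0.256 to 0.362, so that 1 of the 5 was shared.

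RefSeq places the hairpin of miR-548k within the PPFIA1 gene on the same strand, so this miRNA was read as another product of that locus. The mature miRNA lies at chr11:70283986-70284007 and is shown with its seed in capitals.

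hsa-miR-548k: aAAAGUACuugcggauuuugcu

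It measured 43.2, 49.4 and 43.4 CPM in CAPE, against 43.4, 46.2 and 32.2 CPM in DMSO, from 224 to 345 counts per library. The groups overlapped, with DMSO 3 lowest. The log2 fold change was 0.16 (SE 0.17, edgeR adjusted p = 0.656 over 527 miRNAs, of which 11.8% passed), and -0.05 without DMSO 3. Members of the miR-548 family are alike in sequence, and how reads that match several of them were counted is not given in the sources used here.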

How the data were processed

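The authors deposited, for the mRNA libraries, estimated counts and TPM per gene symbol, for which the submitters' processing notes name kallisto 0.46.1, bcl2fastq and GRCh38; how transcripts were joined to genes is not given in the sources used here. The deposited counts are whole numbers, but 32 to 65 genes per library have a TPM above 0 beside a count of 0, so they were treated as rounded estimates. For miRNA the deposited values are raw counts per mature miRNA (2888 entries, 2656 names; of entries sharing a name, that with most counts was used).

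Counts were filtered with filterByExpr, scaled by TMM and compared with edgeR 4.0.16 (quasi-likelihood F test, group as the only term, R 4.3.3), calling genes at a Benjamini-Hochberg adjusted p below 0.05 among 13595 mRNA genes (13919 without DMSO 3) or 527 miRNAs. The SE is the log2 fold change divided by the square root of F. Log2 CPM used a prior count of 2. Alternatives were RLE factors, no filter, DESeq2 1.42.0, limma 3.58.1 on log2(TPM + 1) and log2(TPM + 0.1) for genes with a mean of at least 0.5 TPM, each library left out, and the replicate number as a block. Exact permutation tests used SciPy 1.17.1.

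The members, the partner and marker lists and the tests were chosen with earlier results of these data known, and miR-548k was added after the tables were read. Named partners are those passing with all 6 libraries, or the one with the smallest p in a list, others being marked as named after their values were seen. The 5 nearest genes were taken only from genes that RefSeq lists as protein-coding, which leaves out anonymous, antisense and other non-coding genes and pseudogenes. Coordinates, promoters and miRNA sequences are from RefSeq tables of GRCh38.p14, which held all 6 liprin genes. Some list members, counted in their lists, are not reported here by name.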

Additional observations from a re-analysis of the deposited data

How the results depend on the processing

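Counts of genes that passed depended on DMSO 3. The 265 genes called over all genes (203 higher, 62 lower) became 856 with DESeq2, 122 and 78 with limma on log2(TPM + 1) and log2(TPM + 0.1), 4505 with DESeq2 and 2767 with limma on log2(TPM + 1) when DMSO 3 was left out as well, and 0 to 5731 with each library left out (5731 without DMSO 3, 6 without CAPE 2, 9 without DMSO 1, 17 without DMSO 2, and 0 on leaving out either CAPE 1 or CAPE 3, with 1178 and 1099 unadjusted edgeR p-values under 0.05). Among the 4 liprin genes besides PPFIA4 the count of 0 became 1 (PPFIA3) with DESeq2 or limma on TPM with DMSO 3 left out, and 0 to 1 with each library left out. For the 3 partner lists the count of 1 became 0 without a filter and with limma on either TPM scale, 3 with DESeq2, 8 and 5 with DESeq2 and limma with DMSO 3 left out, and 0 to 10 with each library left out. For the hypoxia-inducible genes the count of 7 became 4 with limma on log2(TPM + 0.1), 14 and 13 with DESeq2 and limma with DMSO 3 left out, and 0 to 14 with each library left out. The fits that combine DMSO 3 left out with another tool were chosen after seeing the data.

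With the replicate number as a block (replicate block) no gene passed in edgeR, 1384 having an unadjusted p under 0.05, so that the counts over all genes, for the partner lists and for the hypoxia-inducible genes were 0, and 0 also for the liprins. Deviations of same-numbered libraries from their group means had correlations of -0.194, 0.14 and -0.00853 for the numbers 1 to 3. DMSO 3 lay far from DMSO 1 and DMSO 2, which therefore deviated alike from the DMSO mean. CAPE 1 had -0.194 with DMSO 1 and -0.184 with DMSO 2, and CAPE 2 had 0.212 and 0.14. This check therefore cannot tell whether same-numbered libraries were paired. Not every library deviated most alike with its own number.

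The log2 fold change of PPFIA4 was 3.29 to 4.15 with each library left out and kept its sign under all alternatives run. PPFIA4 was chosen for this rise in these same libraries, so its kept sign, and that of its share of liprin TPM, is a description and no test. PPFIA1 ran from -0.0182 to 0.350 with each library left out, the negative value being that without DMSO 3, and turned to -0.0254 with DESeq2 and DMSO 3 left out. PPFIBP2 turned to 0.20 and 0.30 with limma on log2(TPM + 1) and log2(TPM + 0.1). miR-548k ran from -0.0525 to 0.25 with each library left out, the negative value being that without DMSO 3. The cause of these turns was not tested. The difference between the CAPE and DMSO shares of PPFIA4 in liprin TPM, 33.0 points, was 31.1 to 34.0 with each library left out. Depth limits PPFIBP2 (60 to 83 counts) and PPFIA4 in DMSO 3 (31 counts).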
